A study of Mus musculus with 8 samples.

Results

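The genes described here are 7 histone genes grouped as replication-independent, apart from the bulk histone supply of S phase. They are the H2A variants H2ax, H2az1, H2az2, Macroh2a1 and Macroh2a2, and the linker histones H1f0 and H1f8. They were chosen by name, as every probe whose RefSeq accession belongs to 1 of these symbols, and this gave 11 of 55681 probes on the array and 7 of 20660 named genes. Of the 11 probes, 9 entered the test, having cleared the scanner's background flag on 3 or more of the 8 arrays, as 30348 probes did in all. These 9 probes stand for 6 of the 7 genes, and H1f0 had none. The signals were measured in mouse morulae at embryonic day 3.0, made by in vitro fertilisation and cultured in KSOM medium. In the P150KD group (5 arrays) the embryos had received siRNA against P150 at the 1-cell stage, and in the siControl group (3 arrays) they had received control siRNA. Each array held RNA pooled from 10 embryos, amplified before labelling, and strain and sex are not given in the sources used here. A knockdown by injected siRNA lowers its target without removing it, and whether arrays of a group hold embryos of separate cultures is not given, so each p-value reflects only the spread among these pools, which may be technical.

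P150, the product of Chaf1a, is the large subunit of CAF-1, a chaperone that hands new H3 and H4 to DNA behind the replication fork. H2A.Z, made from H2az1 and H2az2, is exchanged into nucleosomes near promoters by SRCAP-type remodelling complexes. H2A.X, made from H2ax, is phosphorylated beside DNA breaks, and its gene also makes a message of the S phase type. MacroH2A carries a large folded domain behind its histone part and is best known from the inactive X chromosome and other silent chromatin. Linker histones bind the outside of the nucleosome, and in the mouse the oocyte form H1f8 (also called H1foo) gives way to somatic forms during cleavage.

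Signals are given as log2 of the processed intensity minus the 75th percentile of the same array, so 0 is the level of that percentile. Levels of different probes are not on a common scale, because probes bind with different strength. Since an equal mass of amplified RNA was labelled, a pooled sample cannot tell fewer cells of a type from less RNA per cell. The siRNA target was lower in every knockdown pool: Chaf1a read -1.47, 0.52, -0.48, -1.45 and -0.23 in P150KD against 2.40, 2.09 and 2.27 in siControl (limma adjusted p = 0.0107). All 10 morula and early lineage markers were well above background on every array, with a summed relative signal of 259 to 282 in P150KD and 435 to 465 in siControl. Of these 0 rose and 3 fell in limma: Krt18 by 3.09, Gata3 by 1.75 and Tead4 by 0.87 on the log2 scale, all named after their values were seen, while the brightest by mean signal, Tfap2c, Esrrb and Pou5f1, did not pass. Of 9 cumulus and granulosa markers 5 were above background on no array, and the summed signal was 1.60 to 2.64 in P150KD and 1.85 to 2.25 in siControl, with Foxl2 and Cyp19a1 as the brightest. The sperm list summed to 0.389 to 2.02 in P150KD and 0.223 to 0.302 in siControl, led by Prm1, Gapdhs and Prm2, and Akap4 was above background nowhere. Of its 5 tested genes 0 rose and 0 fell in limma. The highest sum, that of P150KD replicate 2, was mostly Prm1, which read 0.77 there. The 2-cell list summed to 127 to 358 in P150KD and 82.0 to 100.3 in siControl, and 6 of its 10 tested genes rose and 0 fell in limma. Of its brightest genes, Gm2016 and Zscan4f rose, by 2.94 and 3.47 on the log2 scale, and Eif1ad had a log2 fold change of -0.53 and did not pass. Eif1ad read 6.34, 6.02 and 6.22 in siControl, where Gm2016 read 3.19, 3.22 and 2.97. The control sums of this list therefore mostly follow Eif1ad and are no measure of its other genes. Whether Eif1ad belongs among 2-cell genes was not tested. The part of these lists in the results below was not tested. Over all tested probes 4231 (13.9%) passed a limma adjusted p of 0.05. Of these, 45.1% were higher in P150KD, with 58.2% after quantile normalization and 81.8% after scaling to housekeeping genes, which moved the median change of all probes to 0.23, against -0.20 as reported. The housekeeping list itself differed between the groups: as reported, 1 of its 14 tested genes rose and 4 fell in limma. That is 35.7% called, against 17.1% of all tested genes, and 13 of the 14 were lower. The median log2 fold change of the list was -0.29, against -0.24 over all tested genes, of which 8951 of 14601 were lower. Scaling to this list moved log2 fold changes up by 0.43. The counts of the list were themselves taken after scaling to the 75th percentile, so they cannot show which scaling is the more neutral, and this was not tested.

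Among the histone variants, H2ax rose in P150KD morulae and Macroh2a1 fell, while H2az1, H2az2, Macroh2a2 and H1f8 did not pass the test. H2ax was 1.67-fold higher (95% interval 1.24 to 2.25), and Macroh2a1 was 2.75-fold lower by its brightest probe (95% interval 1.67 to 4.51). So 2 of 9 tested probes passed, 1 in each direction, where 13.9% of all tested probes did, 6.28% higher and 7.66% lower. With 9 probes, nothing about the set is read from that share. The groups did not overlap for the same 2 probes, and this held for 27.1% of all tested probes, 9.36% with P150KD above and 17.7% with P150KD below. The median log2 fold change of the 9 probes was 0.03, against -0.20 over all tested probes.

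**Figure D1:**
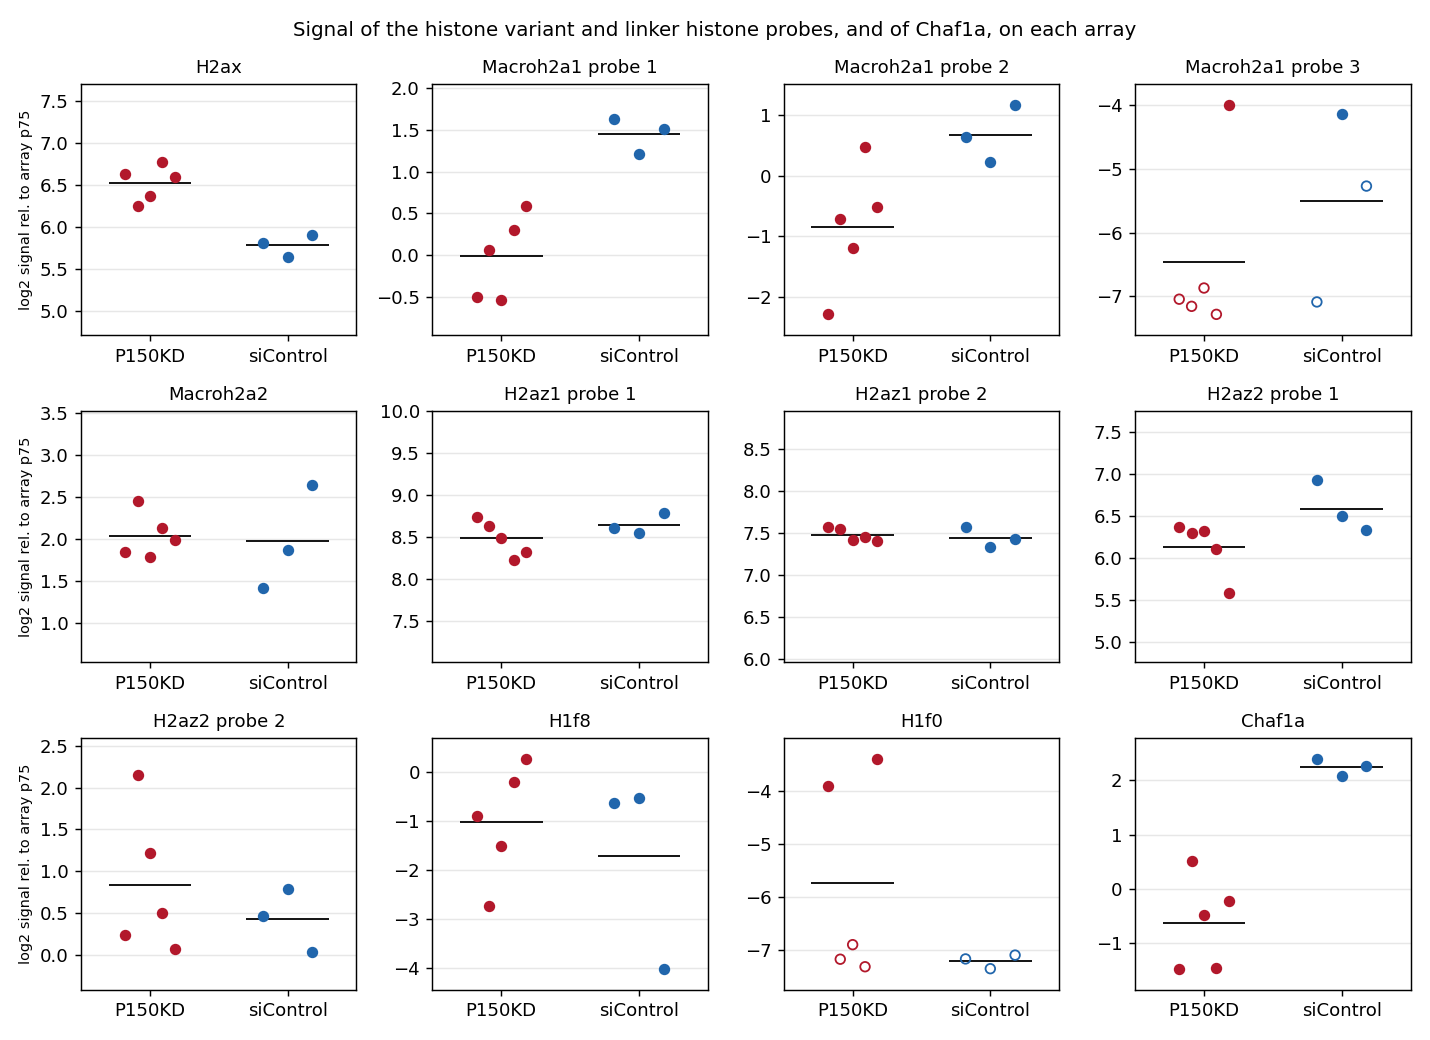
Log2 signal above or below the array's own 75th percentile (vertical axis) for each of the 11 probes and for Chaf1a, with 1 point per array, P150KD left and siControl right in each panel, and a bar at the group mean; open points were not well above background, and the vertical scale differs between panels. The P150KD points lie wholly above siControl for H2ax and wholly below for Macroh2a1 probe 1 and Chaf1a, and the groups overlap in the other panels.

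**Figure D2:**
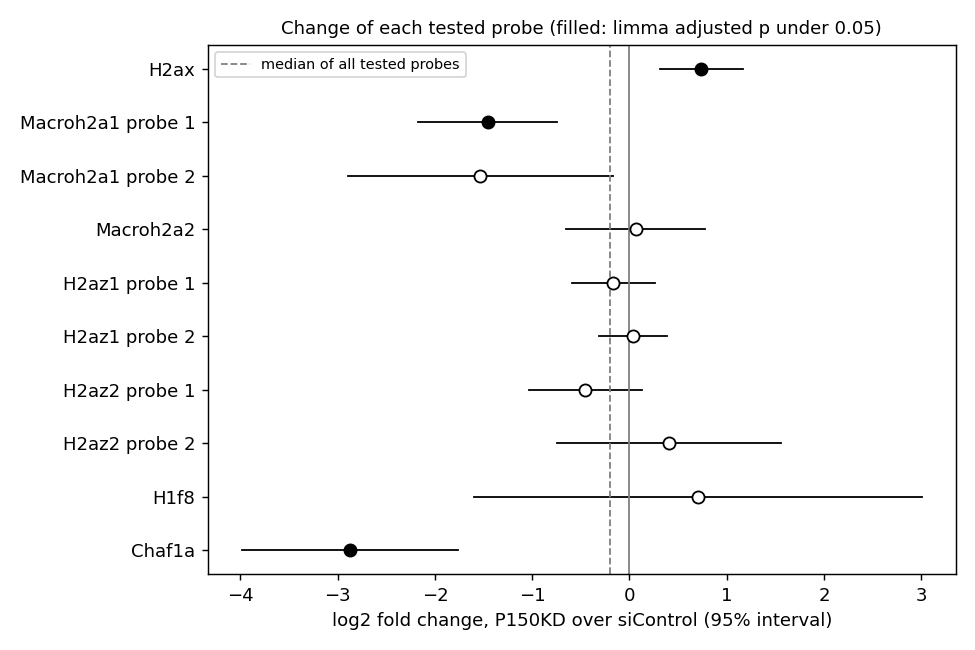
Log2 fold change of P150KD over siControl (horizontal axis) with its 95% interval from limma, for the 9 tested probes and Chaf1a; filled points passed an adjusted p of 0.05 and the dashed line is the median of all tested probes, -0.20. Only H2ax, Macroh2a1 probe 1 and Chaf1a are filled, and the interval of H1f8 is the widest of the 10.

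Macroh2a1 encodes the more widely studied macroH2A protein and has several spliced forms, and the array carried 3 probes under 3 RefSeq transcripts. The brightest, assigned to NM_012015, read -0.50, 0.07, -0.53, 0.30 and 0.59 in P150KD against 1.63, 1.20 and 1.50 in siControl. Every knockdown pool lay below every control pool. The mean was -0.01 ± 0.49 (SD, n = 5) in P150KD and 1.44 ± 0.22 (SD, n = 3) in siControl, a log2 fold change of -1.46 (SE 0.31, limma adjusted p = 0.0223). The second probe, assigned to NM_001159515, read -2.29, -0.72, -1.19, 0.48 and -0.52 in P150KD against 0.65, 0.22 and 1.18 in siControl. Its knockdown pools lay below the controls except for replicate 4, which lay among them. The difference was close in size to that of the first probe, -1.53 (SE 0.58), but the spread was wider and it did not pass (limma adjusted p = 0.124). The third, assigned to NM_001159514, was above background on 1 of 5 P150KD arrays and 1 of 3 siControl arrays and was not tested. It read -7.04, -7.16, -6.87, -7.28 and -3.99 in P150KD against -7.09, -4.13 and -5.27 in siControl, values that mostly lie below background and have no order.

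The fall of Macroh2a1 rested on all 3 controls: leaving out siControl replicate 1, 2 or 3 gave log2 fold changes of -1.37, -1.58 and -1.43, with limma adjusted p of 0.0849, 0.0527 and 0.071. It also missed the threshold when scaled to housekeeping genes, at -1.03 (limma adjusted p = 0.102). The file headers give each array 2 position indices on the slide, and P150KD replicate 1 and all controls shared a value of the first. Among those arrays the difference was -1.94 (limma adjusted p = 0.0931 with the first index as a block). That difference rests on 1 knockdown array, because P150KD replicates 2 to 5 shared the other value. Group and first index thus nearly coincide, and their parts in the reported changes cannot be fully told apart. At the 3 values of the second index that held 1 array of each group, the differences were -1.56, -1.74 and -1.20.

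The bases before the start of Macroh2a1 are shown because it is the member that fell. They lie at chr13:56135627-56135800 on the minus strand of GRCm38.p6, taken from RefSeq and trimmed to what lies outside the annotated gene.
Macroh2a1: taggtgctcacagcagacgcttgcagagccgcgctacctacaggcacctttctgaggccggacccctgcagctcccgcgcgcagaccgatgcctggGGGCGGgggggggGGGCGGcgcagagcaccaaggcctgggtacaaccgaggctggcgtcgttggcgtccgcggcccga
Capitals mark GGGCGG, the core of the GC box bound by Sp1-type factors. This stretch of 174 bases holds 2 copies, and 20.0% of 32841 promoter stretches of the same length hold at least 1 on either strand. It has 18 CpG dinucleotides, against a median of 3. Neither CCAAT nor TATAAA occurs on either strand, and 23.9% and 8.19% of the stretches hold those. A match to letters is a description and not a binding site.

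Macroh2a2 encodes the second macroH2A protein, from another gene on chromosome 10. Its single probe read 1.84, 2.45, 1.78, 2.13 and 1.99 in P150KD against 1.41, 1.86 and 2.64 in siControl. The knockdown pools all lay within the range of the controls. The mean was 2.04 ± 0.27 (SD, n = 5) in P150KD and 1.97 ± 0.62 (SD, n = 3) in siControl, and the difference of 0.07 had a 95% interval of -0.65 to 0.78 (limma adjusted p = 0.904). The interval leaves room for a 1.72-fold rise or a 1.57-fold fall.

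To ask whether the 2 macroH2A genes changed differently, their log2 signals were subtracted within each array, which removes any scaling of an array to 1 value. Macroh2a1 minus Macroh2a2 was -2.34, -2.38, -2.31, -1.82 and -1.40 in P150KD against 0.22, -0.66 and -1.14 in siControl. Every knockdown pool lay below every control. The shift was -1.52, and the exact two-sided permutation test gave p = 0.0357, the smallest that 56 splits allow, and an adjusted p of 0.107 over the 3 pairs compared. Adjusted over 3 pairs, that smallest p could not have gone below the threshold for 1 pair alone, so nothing is read from its missing it.

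**Figure D3:**
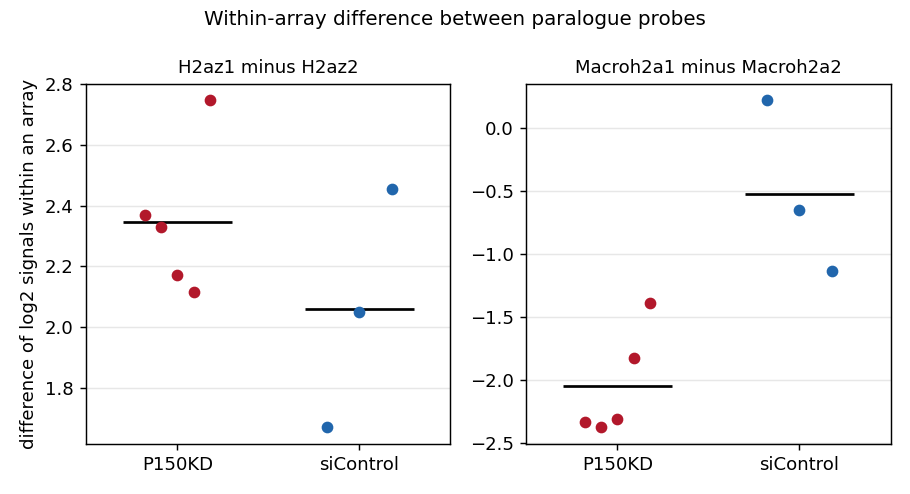
Difference of log2 signals of the brightest probes of 2 paralogues within an array (vertical axis), with 1 point per array, P150KD left and siControl right, and a bar at the mean. For Macroh2a1 minus Macroh2a2 the P150KD points run from -2.38 to -1.40 and siControl from -1.14 to 0.22, and for H2az1 minus H2az2 the groups overlap.

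H2ax encodes H2A.X, whose phosphorylated form, gamma-H2A.X, gathers repair proteins at broken DNA. Its gene, on chromosome 9, is known to make both a polyadenylated transcript and one that ends in the stem-loop of S phase histone messages. The single probe read 6.63, 6.25, 6.37, 6.78 and 6.60 in P150KD against 5.81, 5.64 and 5.90 in siControl. All 5 knockdown pools were above the highest control. The mean was 6.53 ± 0.21 (SD, n = 5) in P150KD and 5.79 ± 0.13 (SD, n = 3) in siControl, a log2 fold change of 0.74 (SE 0.18, limma adjusted p = 0.0376). Phosphorylation is not measured by these arrays, and which of the transcript forms the probe read was not tested. RefSeq's promoter table used here holds no entry that matched H2ax, so no sequence is shown.

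The call of H2ax was close to the threshold. Its direction was the same under all 20 alternatives, with log2 fold changes of 0.63 to 1.17, but in 12 of them the limma adjusted p was above 0.05. Leaving out P150KD replicate 2 kept the call (limma adjusted p = 0.037), and leaving out any other array lost it: siControl replicate 1 (0.11), 2 (0.12) or 3 (0.0748), P150KD replicate 1 (0.0777), 3 (0.0596), 4 (0.0736) or 5 (0.0691). Among P150KD replicate 1 and all controls, which share the first position index, the difference was 0.85 (limma adjusted p = 0.219 with that index as a block). At the 3 values of the second index with 1 array of each group it was 0.44, 0.73 and 0.88.

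**Figure D4:**
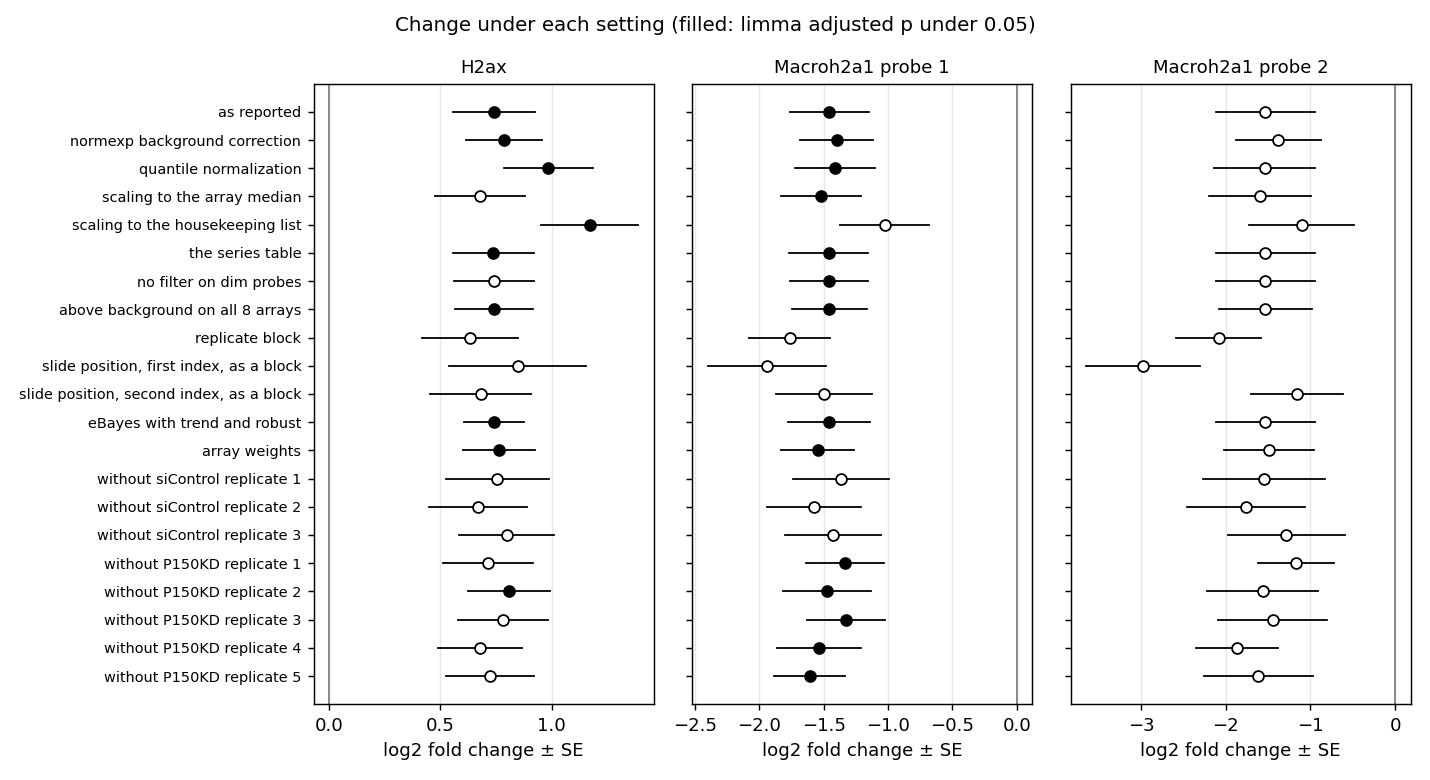
Log2 fold change of P150KD over siControl (horizontal axis, bars 1 SE) for H2ax and the 2 tested Macroh2a1 probes under the reported setting and each alternative; filled points passed a limma adjusted p of 0.05. All points lie on 1 side of 0, from 0.63 to 1.17 for H2ax and from -1.94 to -1.03 for Macroh2a1 probe 1, and no point of Macroh2a1 probe 2 is filled.

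H2A.Z is made from 2 genes with nearly the same protein, and neither passed the test. H2az1, the form that mouse embryos cannot do without, had 2 probes under the same transcript. The brighter read 8.74, 8.63, 8.49, 8.22 and 8.33 in P150KD against 8.61, 8.55 and 8.79 in siControl. The groups overlapped, with 3 of 5 knockdown pools below the lowest control. The difference was -0.17 (95% interval -0.59 to 0.26, limma adjusted p = 0.577). The dimmer H2az1 probe read 7.58, 7.55, 7.41, 7.45 and 7.40 in P150KD against 7.57, 7.34 and 7.43 in siControl. These values overlapped closely, with an SD of 0.08 (n = 5) in P150KD, lower than that of all but 0.817% of the tested probes. The difference was 0.03 (95% interval -0.32 to 0.38, limma adjusted p = 0.903). Under the reported scaling, a change above 1.30-fold in either direction lies outside the interval of this probe. Scaled to housekeeping genes the dimmer probe differed by 0.46 (limma adjusted p = 0.0923), and the interval of the brighter probe reached a 1.51-fold fall. A larger change of H2az1 is therefore not excluded. The sign of the brighter probe turned with quantile normalization (0.09) and with scaling to housekeeping genes (0.26), and that of the dimmer with normexp correction (-0.07) and with scaling to the array median (-0.03).

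H2az2 also had 2 probes, and they pointed in opposite directions. The brighter read 6.37, 6.30, 6.32, 6.10 and 5.58 in P150KD against 6.93, 6.50 and 6.33 in siControl. Of the knockdown pools, 4 of 5 lay below the lowest control and replicate 1 lay just above it. The difference was -0.45 (95% interval -1.04 to 0.13, limma adjusted p = 0.262), and it was -0.02 when scaled to housekeeping genes. The dimmer probe, under the same transcript, read 0.25, 2.15, 1.22, 0.51 and 0.07 in P150KD against 0.47, 0.79 and 0.03 in siControl. Here P150KD replicates 2 and 3 were above every control and the other pools were among them. Its difference was 0.41 (95% interval -0.74 to 1.56, limma adjusted p = 0.614). H2az1 minus H2az2, by the brighter probes, was 2.37, 2.33, 2.17, 2.12 and 2.75 in P150KD against 1.67, 2.05 and 2.46 in siControl. That shift of 0.29 did not pass (exact two-sided permutation p = 0.321, adjusted p = 0.482 over 3 pairs). Probe sequences were not used here, so whether these probes also bind the paralogue or a processed copy was not tested.

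The bases before both H2A.Z genes are shown because the paralogues make nearly the same protein and neither passed. RefSeq places them at chr3:137864237-137864486 on the plus strand for H2az1 and at chr11:6444512-6444693 on the minus strand for H2az2, in GRCm38.p6.
H2az1: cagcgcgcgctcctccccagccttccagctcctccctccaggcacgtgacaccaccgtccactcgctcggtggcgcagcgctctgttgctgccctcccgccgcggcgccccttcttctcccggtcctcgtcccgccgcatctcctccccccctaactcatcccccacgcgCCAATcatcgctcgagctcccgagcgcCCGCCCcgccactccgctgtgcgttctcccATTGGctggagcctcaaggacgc
H2az2: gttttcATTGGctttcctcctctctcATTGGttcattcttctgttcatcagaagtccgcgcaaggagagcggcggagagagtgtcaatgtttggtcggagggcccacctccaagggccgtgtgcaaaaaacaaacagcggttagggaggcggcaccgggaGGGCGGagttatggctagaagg
Capitals mark CCAAT, the box bound by NF-Y, with its reverse ATTGG, and GGGCGG with its reverse CCGCCC. The 250 bases of H2az1 hold 2 CCAAT matches and 1 GC box match, where 33.9% and 32.7% of windows of that length hold at least 1. The 182 bases of H2az2 hold 2 and 1 as well, where 25.4% and 21.4% of windows do. TATAAA is in neither. H2az1 has 28 CpG dinucleotides against a median of 6, and H2az2 has 10 against a median of 4.

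Neither linker histone gave a call. H1f8, the oocyte linker histone, read -0.90, -2.75, -1.52, -0.21 and 0.27 in P150KD against -0.62, -0.53 and -4.02 in siControl. Controls 1 and 2 were close together and control 3 lay far below every other pool. The mean was -1.02 ± 1.18 (SD, n = 5) in P150KD and -1.72 ± 1.99 (SD, n = 3) in siControl, and the SD of the controls was above that of 91.0% of the tested probes. The difference of 0.70 had a 95% interval of -1.59 to 3.0 (limma adjusted p = 0.665), and without siControl replicate 3 it turned to -0.44 (limma adjusted p = 0.773). No direction can therefore be given for H1f8. The oocyte and maternal list, which holds 12 other genes led by Padi6, Gdf9 and Nlrp5, summed to 37.4, 42.3, 39.5, 30.4 and 30.7 in P150KD against 27.5, 23.8 and 27.9 in siControl. All knockdown pools were above the controls on that sum, and control 3, the lowest for H1f8, was the highest control. The sum mostly follows its brightest genes, and some dimmer ones, named after their values were seen, were far lower in control 3. Oas1d read -0.27, -0.44 and -4.47 in siControl, Zp1 -2.06, -1.26 and -4.47, and Bmp15 -1.44, -2.67 and -7.17. Zp3 was lowest there by little, and Padi6, Gdf9, Nlrp5, Oosp1, Npm2, Zar1 and Zp2 were not lowest there. Of the 11 tested genes of the list 2 rose and 0 fell. Of all tested genes 17.1% passed in limma, 6.65% higher and 10.5% lower, and Mos was above background on no array.

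H1f0 encodes H1.0, the linker histone of differentiated and resting cells. Its probe was above background on 2 of 5 P150KD arrays and 0 of 3 siControl arrays and was not tested. It read -3.91, -7.17, -6.90, -7.31 and -3.40 in P150KD against -7.17, -7.35 and -7.10 in siControl. P150KD replicates 1 and 5 stood out, and the other 3 pools lay near the controls. No fold is given, because the mean of P150KD, -5.74 ± 1.92 (SD, n = 5), was under the lowest signal that counted as above background on the control arrays, -5.30 to -5.04. With H1f0 below background in siControl, the planned contrast of H1f8 with H1f0 has little meaning; its shift was -0.76 (exact two-sided permutation p = 0.607, adjusted p = 0.607).

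Of the other linker histone genes, mostly made in S phase, 5 of 9 were tested, and 1 rose and 0 fell. That is 20% called, near the 17.1% of all tested genes. Their median log2 fold change was 0.51, against -0.24 over all tested genes, but it is the value of H1f4 (SE 1.05). It turned to -0.21 with the replicate number as a block and to -0.29 without siControl replicate 3. With only probes above background on all 8 arrays, H1f2 alone was left, so nothing is read from that median. H1f2, a main somatic linker histone, read 4.71, 5.11, 5.49, 4.94 and 5.08 in P150KD against 2.36, 3.44 and 1.54 in siControl. All knockdown pools were above the highest control, by more than 1 on the log2 scale. The log2 fold change was 2.62 (SE 0.41, limma adjusted p = 0.00917). H1f6, the testis form, differed by -2.20 (adjusted p = 0.16), H1f1 by 1.14 (adjusted p = 0.461) and H1f4 by 0.51 (adjusted p = 0.777), none of them past the limma threshold. Among proteins that carry linker histones or compete with them, 0 of 9 rose and 1 fell, a share near the 17.1% of all tested genes, with a median of -0.27. That was Hmga1, an AT-hook protein that competes with H1 for DNA, at -1.33 (SE 0.28, limma adjusted p = 0.0218), a call lost in 7 of 20 alternatives, among them leaving out siControl replicate 1 (adjusted p = 0.0766), 2 (0.0563) or 3 (0.0729). Nasp, a chaperone of H1 and of H3 with H4, differed by -0.46 (adjusted p = 0.129), Hmgn1 by -0.37 (adjusted p = 0.227) and the acidic chaperone gene Ptma by -0.32 (adjusted p = 0.244) in limma. Scaled to housekeeping genes, 0 of these 9 passed in limma and their median was 0.16.

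Of 13 tested genes that exchange H2A.Z, 2 rose, 3 fell and 8 did not pass, 38.5% called against 17.1% of all tested genes. The list was chosen with earlier results of these data known, so nothing about it is read from that share. The count of calls fell to 2 of 13, with 1 higher and 1 lower, without siControl replicate 1 or 3 or P150KD replicate 1 or 4. It lay between 2 and 4 over all arrays left out. With the replicate number or either slide index as a block 0 passed in limma. Ino80, the motor of the INO80 remodelling complex, read 4.05, 3.94, 4.03, 3.63 and 3.55 in P150KD against 2.43, 2.87 and 2.31 in siControl (log2 fold change 1.30, SE 0.21, limma adjusted p = 0.0106). Actr5, an actin-related subunit of the same complex, differed by 1.78 (SE 0.41, limma adjusted p = 0.0296). For both genes every knockdown pool was above every control. Actr8, another subunit of that complex, named after its values were seen, went the other way, at -0.55 (limma adjusted p = 0.0615). It did not pass, though every knockdown pool was below every control. The call of Actr5 was lost in 10 of 20 alternatives, among them leaving out siControl replicate 1 (limma adjusted p = 0.0748), 2 (0.0908) or 3 (0.0935) or P150KD replicate 1 (0.0633), 4 (0.0624) or 5 (0.0533).

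Yeats4, the acetyl-lysine reader of the SRCAP and TIP60 complexes that bring H2A.Z in, read 0.09, 0.14, -0.08, -0.59 and -0.52 in P150KD against 1.19, 1.38 and 1.48 in siControl. All 5 knockdown pools were below the lowest control (log2 fold change -1.55, SE 0.24, limma adjusted p = 0.00811). Ruvbl1, an ATPase shared by these complexes and INO80, had a log2 fold change of -0.72 (limma adjusted p = 0.0303). The other fall, named after its values were seen, was that of the SRCAP subunit gene Znhit1 at -0.76 (limma adjusted p = 0.031). The calls of Ruvbl1 and Znhit1 were lost in 12 of 20 alternatives each. Of single arrays, leaving out any but P150KD replicates 2 and 5 lost that of Ruvbl1, and leaving out any but siControl replicate 2 and P150KD replicate 5 lost that of Znhit1. With quantile normalization or with scaling to housekeeping genes 2 rose and 1 fell, and the median of the list was -0.44 as reported, -0.23 by quantile and -0.01 by housekeeping genes. Calls for Ino80, Yeats4 and H1f2 were lost only with slide position or replicate number as a block, among the alternatives run.

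Genes that phosphorylate H2A.X, read it or reverse the mark were tested for all 15 members, and 0 passed in limma, where 17.1% of all tested genes did. An unadjusted p under 0.05 was seen for 4 of them, and for 5198 of all 14601 tested genes. Of the 15, 11 were higher and 4 lower, with a median of 0.20. Over all tested genes 5650 were higher and 8951 lower, with a median of -0.24. Trp53bp1, a reader at breaks, differed by 0.78 (adjusted p = 0.0576), Mdc1, which binds gamma-H2A.X directly, by -0.65 (adjusted p = 0.0753), and the kinase genes Atm by 0.66 (adjusted p = 0.104) and Prkdc by 0.83 (adjusted p = 0.131). Scaled to housekeeping genes, 3 of the 15 rose, and 1 rose with normexp correction or quantile normalization. With only probes above background on all 8 arrays, with trend and robust, or with array weights, 1 rose and 1 fell, namely Trp53bp1 (limma adjusted p = 0.0331, 0.0319 and 0.0294) and Mdc1 (limma adjusted p = 0.046, 0.034 and 0.0348). In the list of factors that place or turn over macroH2A, 0 of 5 rose and 1 fell, a share near that of all tested genes, with a median of -0.15. Hells, a remodeller needed for DNA methylation, had a log2 fold change of -0.97 (SE 0.24, limma adjusted p = 0.0343), and its call was lost in 13 of 20 alternatives. Cul3 differed by 0.31 (adjusted p = 0.233), Parp1 by -0.25 (adjusted p = 0.324) and Atrx by 0.23 (adjusted p = 0.491) in limma, and Parp1 turned to 0.0038 with quantile normalization and to 0.18 with scaling to housekeeping genes.

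**Figure D5:**
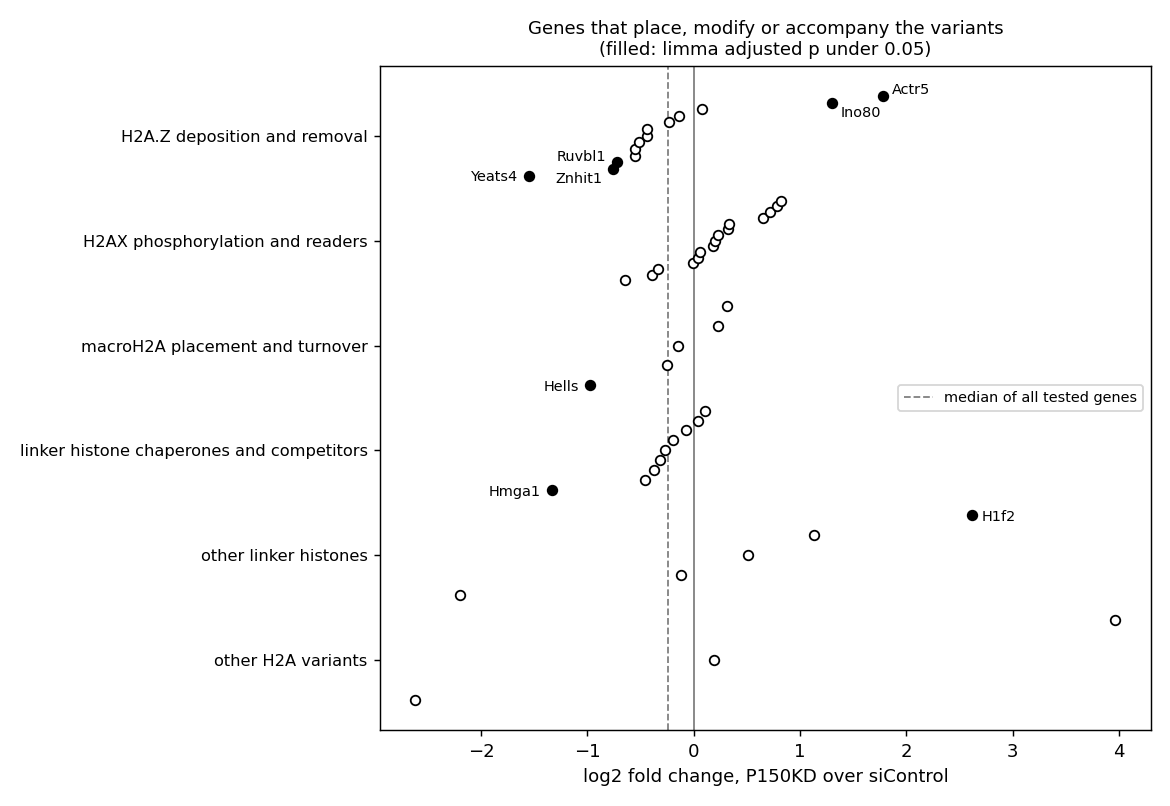
Log2 fold change of P150KD over siControl (horizontal axis) for each tested gene of 6 lists that place, modify or accompany the variants, 1 point per gene by its brightest tested probe; filled points passed a limma adjusted p of 0.05 and are named, and the dashed line is the median of all tested genes, -0.24. The H2A.Z list has 5 filled points, 2 right and 3 left of 0, and the H2A.X list has none; the outermost 2 points of the other H2A variants, H2ap and H2al2a, rest on a group whose mean was below background.

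Among other H2A variants 3 of 7 were tested and 0 passed in limma, where 17.1% of all tested genes did. An unadjusted p under 0.05 was seen for 2 of them, and for 5198 of all 14601 tested genes. H2aj, a variant tied to cell ageing in human cells, read 6.07, 5.96, 6.28, 6.56 and 6.31 in P150KD against 6.34, 5.84 and 5.95 in siControl, a difference of 0.19 (adjusted p = 0.567 in limma) with overlapping groups. H2al2a, a short variant of spermatids, read -4.16, 0.28, -0.58, -2.02 and -0.51 in P150KD against -3.07, -6.02 and -7.00 in siControl. It was above background on all 5 P150KD arrays and on 1 of 3 siControl arrays, and did not pass (adjusted p = 0.0707 in limma), except without P150KD replicate 1 (adjusted p = 0.0394 in limma). H2ap was above background on 1 P150KD array and 2 siControl arrays and did not pass (adjusted p = 0.0841 in limma), except with normexp correction (0.0413), with array weights (0.0208) or without siControl replicate 3 (0.0492). No difference is given for either, because the mean of H2al2a in siControl and that of H2ap in P150KD were under the lowest signal that counted as above background on those arrays.

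The genes whose signal over the 8 arrays ran most like that of a member were listed for the 3 members with the smallest p, among 11283 other genes above background on all arrays. For Macroh2a1 these included Pold2 (Pearson r = 0.986) and Tmem171 (0.985). For H2ax they were Vav1 (0.988), Gm5458 (0.988) and Farp2 (0.986). For H2az2 they were Pkib (0.979), Cox8a (0.970) and Tspyl2 (0.968). Each r is among the highest of 11283 values over only 8 arrays, so it is high by selection for all 3 members, H2az2 included. No p is given for these values. All points share the same 8 arrays in 2 groups, so for H2ax and Macroh2a1 a high r also holds the difference between the groups.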

How the data were processed

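RNA of 8 pools of mouse morulae was hybridised to single-colour arrays. Per the file headers, the authors extracted spot intensity with Agilent Feature Extraction (10.5.1 in the submitters' processing notes); the processed signal is background-subtracted and not normalized between arrays, whereas median intensities of spot and background are unprocessed. Other deposited columns used are flags, unit "other". The authors' deposited series table holds log2 values; set against the scanner files, they match log2 processed signals put relative to the 75th percentile, then centred per probe on the median, within 0.05 for 99.92% to 99.94% of probes. No spot was saturated, and 50.1% to 55.9% of spots were well above background; the number of arrays limits the precision. All arrays lay on 1 slide with 1 scan time, so no slide or scan block was run.

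Spots of a probe were averaged, without outlier spots where another remained, put on the log2 scale and scaled to the 75th percentile over probes (819 to 1304). Probes were named by RefSeq accession (27235 with 1 symbol). A probe well above background on at least 3 arrays was tested with limma 3.58.1 in R 4.3.3, two-sided and without covariates, and p-values were adjusted by Benjamini-Hochberg over the 30348 probes tested. The brightest tested probe stood for a gene in lists. The procedure was checked on simulated data. Replicate numbers did not pair the arrays. After the group mean of each probe was subtracted, the deviations of same-numbered arrays correlated at -0.01, -0.07 and -0.02.

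The members and lists were chosen with earlier results of these data known. Named genes are the members, Chaf1a, up to 4 genes with the smallest p per list, the 3 brightest tested per marker list and the 3 most alike per member, of which 1 is not reported here. Alternatives were quantile normalization, normexp (offset 50), the array median or 14 housekeeping genes for scaling, the series table, other filters, replicate number or slide position as a block, trend and robust, array weights, a gene's probes averaged, and each array left out; the second slide position was added after the data were seen.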

Additional observations from a re-analysis of the deposited data

How the results depend on the processing

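The directions of H2ax and of both tested Macroh2a1 probes were kept in every alternative run, while their calls were not. With the replicate number as a block, which the arrays' deviations do not bear out as a pairing, limma called 0 of all probes, 0 higher and 0 lower. Of members 0 were called, and 6371 probes had an unadjusted limma p under 0.05. P150KD replicates 4 and 5 share their number with no control and add nothing to the difference in that fit, so it has less power. In that fit H2ax was 0.63 (adjusted p = 0.244), Macroh2a1 probe 1 was -1.76 (adjusted p = 0.151), Chaf1a was -2.73 (adjusted p = 0.163) and H1f4 turned to -0.21. With the first slide index as a block, 713 probes passed in limma, 442 higher and 271 lower, and 0 members. H2ax was then 0.85, Macroh2a1 probe 1 was -1.94 and Chaf1a was -3.72 (limma adjusted p = 0.0509), and H2az1 probe 1 turned to 0.091, H2az2 probe 2 to -0.18 and Macroh2a2 to -0.13. With the second index, 110 passed, 88 higher and 22 lower, and 0 members, with H2ax at 0.68, Macroh2a1 probe 1 at -1.50 and Chaf1a at -2.72 (limma adjusted p = 0.1).

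Scaling to housekeeping genes gave 3128 higher and 694 lower calls and 1 member call, Macroh2a1 probe 1 at -1.03 being lost, and turned H2az1 probe 1 to 0.26, Parp1 to 0.18, Hmgn1 to 0.056 and Ptma to 0.11. Quantile normalization gave 1487 lower calls and turned H2az1 probe 1 to 0.089 and Parp1 to 0.0038. Scaling to the array median gave 1512 lower calls and 1 member call, with H2ax at 0.68 (limma adjusted p = 0.0748) and H2az1 probe 2 turned to -0.029, and normexp turned that probe to -0.072. Without a filter on dim probes 1 member passed, and H2ax at 0.74 did not (limma adjusted p = 0.0609).

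Leaving out 1 array gave 1706 to 3749 calls, 1016 to 1770 higher and 690 to 1979 lower, and 0 to 2 member calls. H2ax ranged from 0.67 to 0.81, Macroh2a1 probe 1 from -1.61 to -1.33 and Chaf1a from -3.16 to -2.66. H1f8 ranged from -0.44 to 1.30, H2az1 probe 2 from -0.022 (without siControl replicate 2) to 0.095, Macroh2a2 from -0.22 (without siControl replicate 1; -0.04 without P150KD replicate 2) to 0.40, and H1f4 from -0.29 (without siControl replicate 3) to 1.20. The causes of these shifts were not tested. With 3 controls, with H1f0, Macroh2a1 probe 3 and H1f4 near background and with H1f8 widely spread, small changes could not be resolved here.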
